A study of Mus musculus with 8 samples.

Results

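Macrophages of the embryonic kidney were followed here through 10 of the genes that mark them, C1qa, C1qb, C1qc, Csf1r, Mrc1, Tyrobp, Fcer1g, Ctss, Laptm5 and Cx3cr1. The genes were chosen by name, and every probe set of the array that the platform annotation assigned to 1 of these genes alone was used. This gave 19 probe sets out of 45101, and 10 genes out of the 18194 that at least 1 probe set named singly. The question was how the signals of these genes compared between kidneys that form nephrons and kidneys that do not, at an early and a late stage of nephrogenesis.

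RNA came from pooled kidneys of E14.5 and E18.5 mouse embryos on a mixed C57BL/6, 129 and SJL/J background, both sexes together. The mutants were Lim1 flox/lacZ; Rarb2-Cre tg/+, with 17 embryos in the E14.5 pool and 9 in the E18.5 pool, and the controls were Lim1 flox/+; Rarb2-Cre tg/+, with 23 embryos in the E14.5 pool and 14 in the E18.5 pool. All embryos thus carried 1 floxed Lim1 allele and the Cre transgene, which acts in the metanephric mesenchyme and not in the ureteric bud, and the mutants carried the lacZ null allele in every cell. Each pool was measured on 2 arrays made from separate target preparations of the same RNA. The 2 arrays were technical duplicates, so each condition had 1 biological replicate and 2 pools alone gave no p-value.

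Macrophages enter the fetal kidney while it forms, settle among the stroma and the young epithelia, and are known there for clearing dying cells and debris. They depend on the receptor Csf1r, sense immune complexes and lipids through receptors that signal by the adaptors Tyrobp and Fcer1g, and degrade what they ingest with lysosomal proteases such as cathepsin S. They are also the main source of C1q, the recognition unit of the classical complement pathway, which is built from the A, B and C chains encoded by C1qa, C1qb and C1qc. C1q binds immune complexes and dying cells and passes the signal to the proteases C1r and C1s.

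The chains of C1q are encoded side by side. In the RefSeq annotation of mouse assembly GRCm38.p6, C1qb, C1qc and C1qa follow each other on chromosome 4, with 0 other genes listed between them. Promoter sequences, 250 bases before to 50 bases after the gene start, were found in RefSeq for 7 of the 10 genes, C1qb, C1qc, Ctss, Cx3cr1, Fcer1g, Laptm5 and Mrc1. The promoters of C1qb and C1qc are shown because the signals of these chains moved together. Both lie on the minus strand, C1qb at chr4:136886151-136886450 and C1qc at chr4:136892865-136893164. Capitals mark the letters GAGGAA on either strand (TTCCTC on the other), the core of sites for PU.1, a transcription factor of the myeloid lineage.
C1qb: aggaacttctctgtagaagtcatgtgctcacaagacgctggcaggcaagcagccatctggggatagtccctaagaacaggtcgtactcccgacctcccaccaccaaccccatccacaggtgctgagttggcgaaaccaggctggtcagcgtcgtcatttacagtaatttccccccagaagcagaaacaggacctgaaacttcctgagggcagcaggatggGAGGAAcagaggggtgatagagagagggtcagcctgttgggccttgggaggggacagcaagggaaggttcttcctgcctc
C1qc: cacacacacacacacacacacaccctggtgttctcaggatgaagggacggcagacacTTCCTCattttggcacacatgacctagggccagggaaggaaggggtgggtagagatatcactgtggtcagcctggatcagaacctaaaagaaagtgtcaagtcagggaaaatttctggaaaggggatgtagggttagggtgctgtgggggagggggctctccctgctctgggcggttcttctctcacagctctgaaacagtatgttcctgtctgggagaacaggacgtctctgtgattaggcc
The match began 30 bases before the gene start in C1qb and 193 bases before it in C1qc. GAGGAA or its reverse complement was found in 5 of the 7 promoters, those of C1qb, C1qc, Ctss, Laptm5 and Mrc1, and in 28.3% of all 32851 promoters in the table. The longer form GAGGAAGT, which contains GAGGAA, was found in C1qc and Ctss, 2 of 7, and in 3.2% of all promoters. The letters TGCTGA, part of sites for MAF factors, was found in C1qb, Ctss and Laptm5, 3 of 7, and in 19.5% of all promoters. These matches describe letters in a window, and Laptm5 and Mrc1 held GAGGAA as well as C1qb and C1qc did.

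The values are linear signal intensities, which have no unit and include some background. Array medians lay between 225 and 243, and duplicates correlated across probe sets with r between 0.980 and 0.990 on the log2 scale. The E18.5 mutant arrays stood farthest apart, with a median fold of 1.16 between duplicates against 1.08 to 1.11 in the other pools. The targeted gene, Lim1, has 2 probe sets under its symbol Lhx1. Probe set 1421951_at gave 388 and 365 in E14.5 controls, 323 and 289.8 in E14.5 mutants, 342 and 382 in E18.5 controls, and 459 and 379 in E18.5 mutants. Probe set 1450428_at gave 449 and 517, 563 and 554, 369.9 and 352, and 296 and 333 in the same order. The probe sets differed in opposite directions at each stage, the sources used here do not say whether they lie in the deleted part, and so they check no label. A list of 10 measured proximal tubule genes stood at a median log2 ratio of -4.15 in E18.5 mutants against E18.5 controls.

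Of the 19 probe sets, 15 had a mean signal at or above the 40th percentile of all probe sets, 188 units. By the brightest probe set of each gene, 9 of the 10 genes reached it, and Cx3cr1, at percentile 21.8, did not. A further list of 24 general macrophage and leukocyte genes had 22 measured, of which 12 reached that percentile. Among defining macrophage markers, Adgre1, which encodes the F4/80 antigen, was at percentile 67.4 and Mpeg1, which encodes perforin-2, at percentile 58.0. Itgam, the CD11b chain, was at percentile 17.3, the scavenger receptor Cd163 at 5.18 and the receptor Gpr34 at 2.48, so part of the marker set was dim in every pool.

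The data on C1q were alike for the 3 chains. C1qa (1417381_at) gave 170.1 and 152 in E14.5 controls, 182 and 193 in E14.5 mutants, 299 and 316 in E18.5 controls, and 469 and 602 in E18.5 mutants. C1qc (1449401_at) gave 149 and 132, 219 and 182, 371 and 387, and 571 and 736 in the same order. C1qb (1417063_at) gave 131 and 105, 158 and 149, 222 and 251, and 363 and 477. In each of these probe sets the order was E14.5 control, E14.5 mutant, E18.5 control, E18.5 mutant, and the arrays of neighbouring pools did not overlap.

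**Figure D1:**
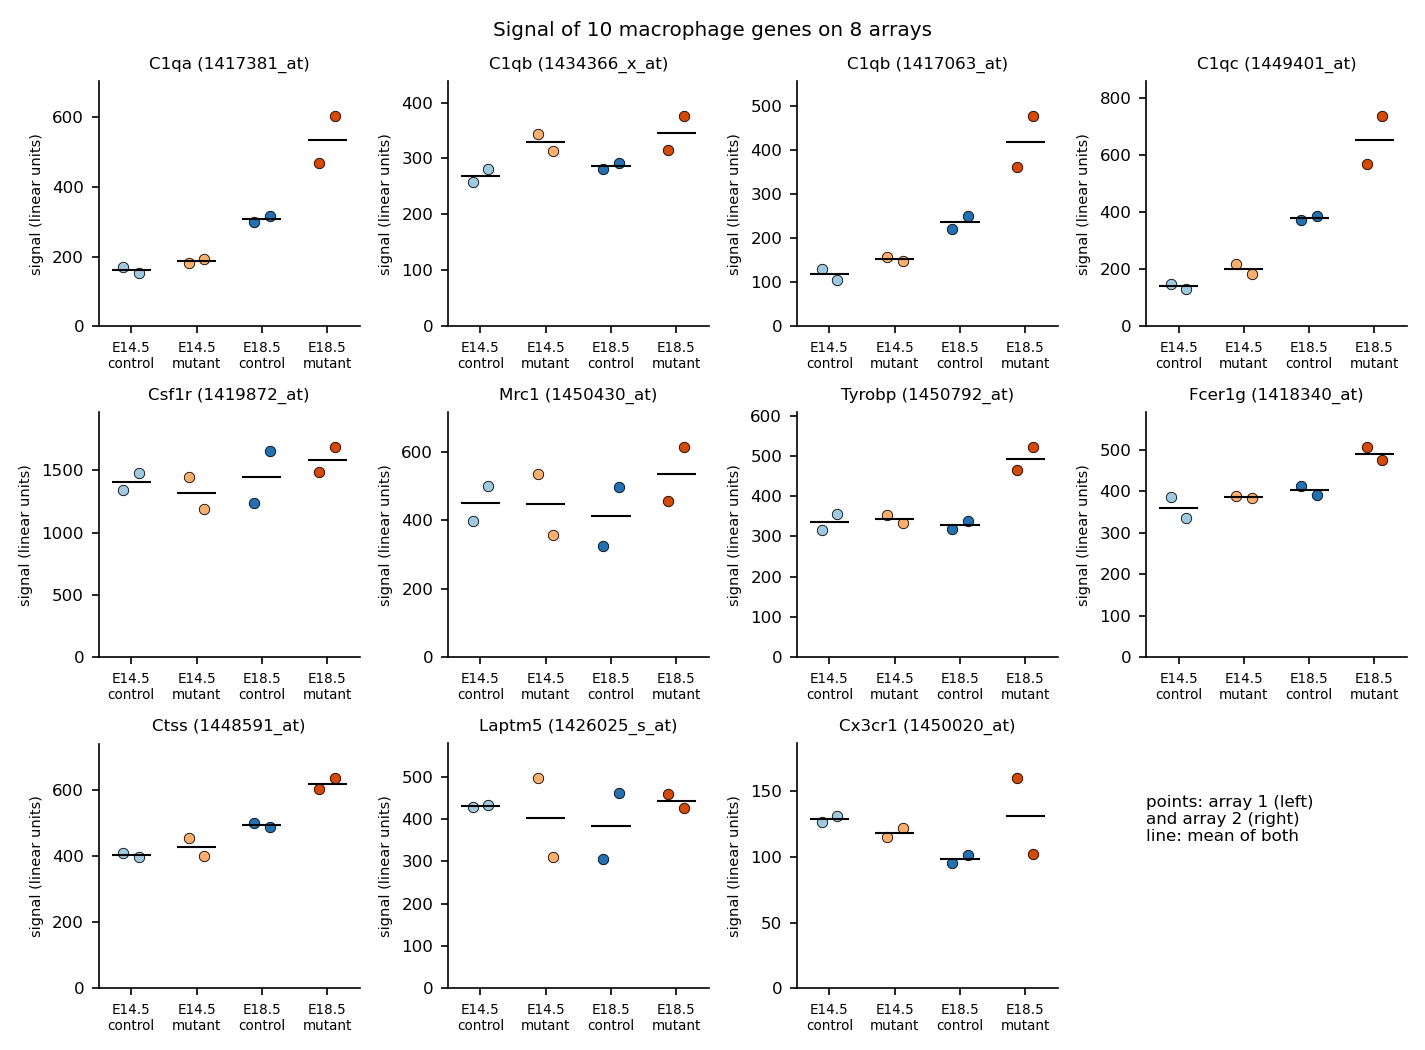
Signal of the brightest probe set of each of the 10 genes, and of a further C1qb probe set, on the 8 arrays. Each point is 1 array in linear signal units, the horizontal line is the mean of the duplicates, and each vertical axis starts at 0. C1qa, C1qb (1417063_at) and C1qc lay between 105 and 170.1 units in E14.5 controls and between 363 and 736 in E18.5 mutants, whereas all pools of Mrc1 and of the Laptm5 probe set overlapped.

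C1qb was measured by 2 more probe sets, whose suffix _x_at marks probes that can also match other transcripts, and they were much flatter. The brightest, 1434366_x_at, gave 258 and 281 in E14.5 controls, 344 and 314 in E14.5 mutants, 281 and 291 in E18.5 controls, and 315 and 375 in E18.5 mutants. Probe set 1437726_x_at gave 159.7 and 192, 215 and 191, 196 and 208, and 245 and 312. Both were higher in E18.5 mutants than in E18.5 controls on every array, but neither had the clear step between E14.5 and E18.5 that 1417063_at had. Statements on C1qb below hold for 1417063_at unless another probe set is named.

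With stage, C1q rose in both genotypes. In E14.5 controls C1qa, C1qb and C1qc lay below the 40th percentile of their own arrays, 191.3 and 186.7 units. C1qb lay below it in E14.5 mutants too, where it was 183.9 and 181.9 units. The stage ratios thus divide by dim signals that include some background. Ratios of mean signals are given with the range over the 4 pairings of arrays. In controls, E18.5 over E14.5 was 2.69 (2.49 to 2.92) for C1qc, 2.00 (1.69 to 2.38) for C1qb and 1.91 (1.76 to 2.08) for C1qa. In mutants it was 3.26 (2.61 to 4.05) for C1qc, 2.73 (2.29 to 3.19) for C1qb and 2.85 (2.42 to 3.30) for C1qa. For C1qa the stage ratio in mutants was 1.49 times that in controls, between 1.17 and 1.88 over the combinations of arrays. For C1qb it was 1.37 times (0.962 to 1.89) and for C1qc 1.21 times (0.894 to 1.62). Pools were compared by a pair of size rules. The 2-fold rule asked for a ratio of at least 2, above the fold between duplicates of either pool, with enough signal. The 1.5-fold rule asked for a ratio of at least 1.5 with both arrays of a pool above both of the other. Both rules set a minimum signal on the higher pool alone, which for a rise with stage is the E18.5 pool. In controls 1 of the 10 genes, C1qc, passed the 2-fold rule upward, where 4.75% of all genes did, and 3 passed the 1.5-fold rule, C1qa, C1qb and C1qc, where 11.7% of all genes did. The ratio of C1qb was 1.999, so this count turned on a small margin. In mutants the 3 C1q genes passed both rules, against 1.35% and 4.55% of all genes. No gene of the 10 passed downward in either genotype, against 2.94% and 7.04% of all genes by the 2-fold and the 1.5-fold rule in controls and 1.49% and 6.4% in mutants.

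A model across all 4 pools gave the only p-values available. A limma fit with additive terms for genotype and stage, in which each pool counted once, tested 27061 probe sets, 15 of them from 9 of the 10 genes. The fit leaves 1 residual degree of freedom and takes the stage effect as equal in both genotypes. Its errors therefore do not measure the spread between litters or embryos. The stage effect was 1.56 ± 0.13 (SE) on the log2 scale for C1qc, with an adjusted p of 0.017 over 4 pools in limma. It was 1.21 ± 0.15 for C1qb (adjusted p = 0.022, limma) and 1.21 ± 0.17 for C1qa (adjusted p = 0.027, limma). These 3 probe sets were the ones of the 15 that passed, and 3.42% of all probe sets passed upward and 5.2% downward. The other C1qb probe sets had adjusted p-values of 0.716 (1434366_x_at) and 0.179 (1437726_x_at) in limma. The 10 probe sets of the remaining 6 genes tested had stage effects between -0.03 and 0.41 and adjusted p-values between 0.103 and 0.986 in limma.

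Between genotypes, the C1q genes were higher in mutants, by a moderate amount at E18.5 and a small one at E14.5. At E18.5, mutant over control was 1.74 (1.49 to 2.01) for C1qa, 1.78 (1.45 to 2.15) for C1qb and 1.72 (1.48 to 1.98) for C1qc. At E14.5 it was 1.17 (1.07 to 1.28), 1.30 (1.14 to 1.504) and 1.42 (1.22 to 1.65) in the same order. The arrays did not overlap at either stage. At E18.5, 0 of the 10 genes passed the 2-fold rule upward, where 0.165% of all genes did, and 4 passed the 1.5-fold rule, C1qa, C1qb, C1qc and Tyrobp, where 1.35% of all genes did. At E14.5, 0 passed either rule, where 0.0055% and 0.456% of all genes did upward. Downward counts were 0 of 10 at both stages. Over all genes, downward shares were 2.23% and 5.1% at E18.5, and 0.121% and 0.484% at E14.5, by the 2-fold and the 1.5-fold rule.

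The size of the C1q difference at E18.5 depended on which mutant array was read. The second E18.5 mutant array gave 1.28, 1.31 and 1.29 times the signal of the first for C1qa, C1qb and C1qc, a wider gap than in the other pools, where the same ratio lay between 0.803 and 1.13. Against the mean of the E18.5 controls, the first mutant array stood at 1.53, 1.54 and 1.51, and the second at 1.96, 2.02 and 1.94. Both arrays were above the controls for each chain.

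In the limma fit the genotype effect common to both stages was 0.64 ± 0.13 for C1qc, 0.60 ± 0.15 for C1qb and 0.51 ± 0.17 for C1qa on the log2 scale, with adjusted p-values of 1.00 in limma. With limma, 0 of the 15 probe sets passed, and so did 0 of all 27061 probe sets, in either direction. At an unadjusted p under 0.05, 4 of the 15 were higher in mutants, C1qa, C1qc and 2 probe sets of C1qb, and 0 were lower. Over all probe sets that share was 2.16% upward and 1.7% downward. With 1 residual degree of freedom, the fit takes the genotype effect as equal at both stages.

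**Figure D2:**
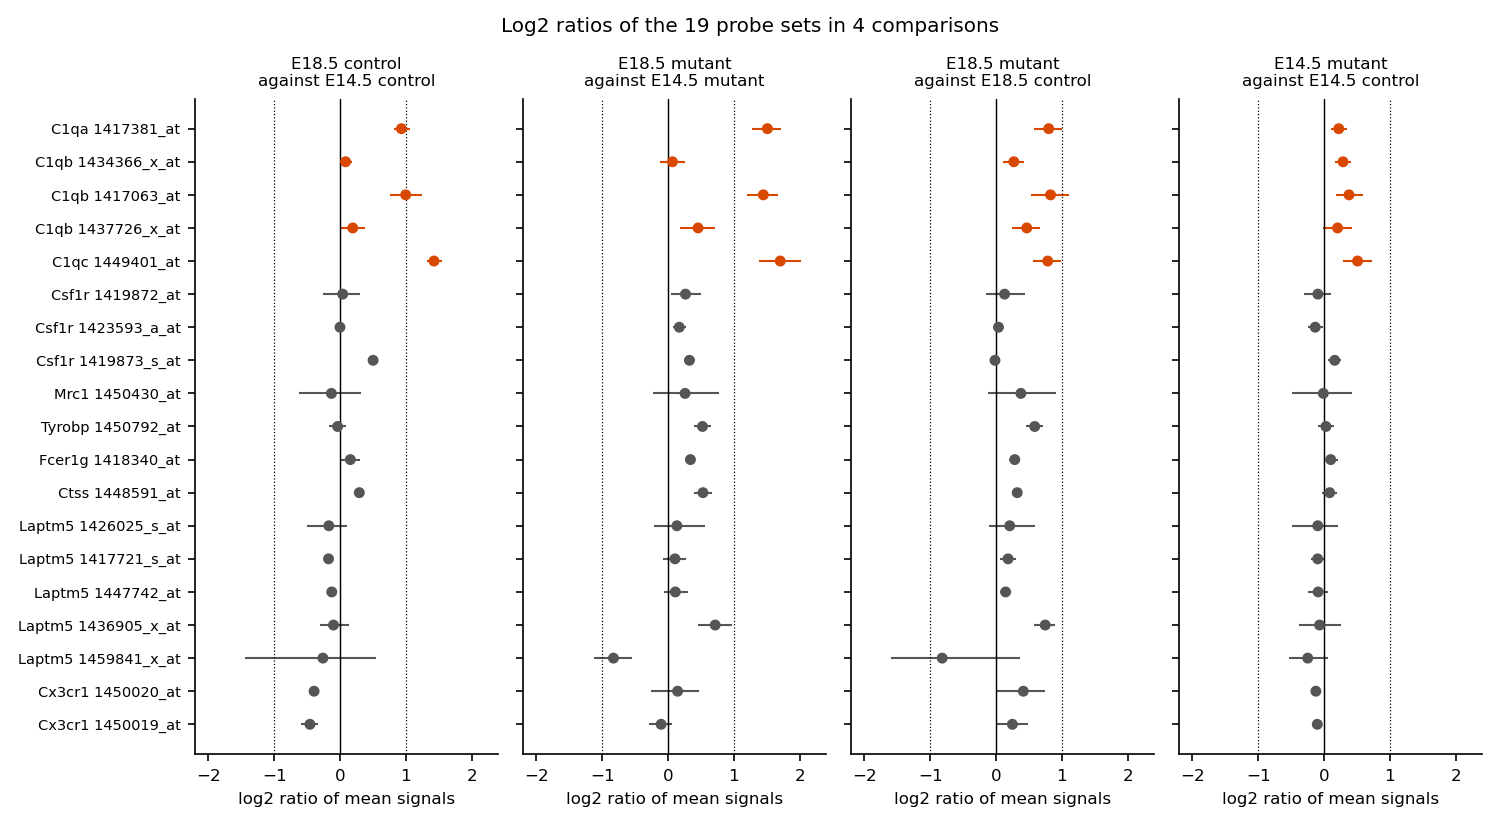
Log2 ratio of mean signals for each of the 19 probe sets in the 4 comparisons, with points for the ratio of means and bars for the range over 4 pairings of arrays. Dotted lines mark 2-fold and the C1q probe sets are in orange. The 3 C1q probe sets C1qa, C1qb 1417063_at and C1qc stood near or above 2-fold in both stage comparisons and below it at E18.5 between genotypes, where Tyrobp came next among the genes above the 40th percentile.

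By the brightest probe set of each gene, Tyrobp had the next ratio between E18.5 genotypes after C1qa and C1qc. Tyrobp encodes DAP12, the ITAM signalling adaptor of Trem2 and other myeloid receptors. It gave 317 and 355 in E14.5 controls, 353 and 333 in E14.5 mutants, 317 and 339 in E18.5 controls, and 465 and 521 in E18.5 mutants. The E18.5 mutant arrays were above all 6 others, which overlapped among themselves. Mutant over control at E18.5 was 1.504 (1.37 to 1.64), and at E14.5 it was 1.02 (0.938 to 1.11). E18.5 over E14.5 was 1.44 (1.32 to 1.57) in mutants and 0.976 (0.894 to 1.07) in controls, so that the stage ratio in mutants was 1.47 times that in controls, between 1.24 and 1.75 over the combinations of arrays. Tyrobp did not pass the limma fit, with a stage effect of 0.24 ± 0.17 (adjusted p = 0.413).

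Fcer1g, the common gamma chain of Fc receptors, gave 386 and 335 in E14.5 controls, 389.8 and 384 in E14.5 mutants, 414 and 391 in E18.5 controls, and 506 and 475 in E18.5 mutants. Its E18.5 mutant arrays were also the highest of the 8, by a smaller margin. Mutant over control at E18.5 was 1.22 (1.15 to 1.29) and passed neither rule.

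Ctss encodes cathepsin S, a lysosomal cysteine protease of antigen-presenting cells. It gave 409 and 399 in E14.5 controls, 456 and 401 in E14.5 mutants, 502 and 489 in E18.5 controls, and 603 and 636 in E18.5 mutants. The E14.5 pools overlapped, the E18.5 controls were above them, and the E18.5 mutants were above the E18.5 controls. E18.5 over E14.5 was 1.23 (1.20 to 1.26) in controls and 1.45 (1.32 to 1.59) in mutants, and mutant over control at E18.5 was 1.25 (1.20 to 1.30). These ratios passed neither size rule, and the stage effect had an adjusted p of 0.113 in limma.

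The growth factor receptor Csf1r, through which macrophages receive their survival signal, passed neither rule in any comparison. Its brightest probe set, 1419872_at, gave 1341 and 1477 in E14.5 controls, 1450.4 and 1189.5 in E14.5 mutants, 1241 and 1659.7 in E18.5 controls, and 1490.4 and 1684 in E18.5 mutants. Pools next to each other in the order of levels overlapped. Probe set 1423593_a_at lay between 497 and 599 on all 8 arrays, with a mutant over control ratio of 1.03 (0.998 to 1.05) at E18.5. Probe set 1419873_s_at gave 299 and 282, 338 and 312, 422 and 402, and 399.7 and 415. In controls it was higher at the later stage, by a ratio of 1.42 (1.35 to 1.496), and its E18.5 pools overlapped at a mutant over control ratio of 0.989 (0.948 to 1.03). In mutants all 3 probe sets had both E18.5 arrays above both E14.5 arrays. The ratios there were 1.20 (1.03 to 1.42) for 1419872_at, 1.13 (1.05 to 1.21) for 1423593_a_at and 1.25 (1.18 to 1.33) for 1419873_s_at.

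Mrc1, the mannose receptor of tissue macrophages, gave 399.9 and 501 in E14.5 controls, 537 and 358 in E14.5 mutants, 326 and 498 in E18.5 controls, and 457 and 613 in E18.5 mutants. All pools overlapped, and the ratio of 1.30 between E18.5 genotypes had a range over array pairings of 0.918 to 1.88. Cx3cr1, the fractalkine receptor, had probe sets at percentiles 21.8 and 20.8. Probe set 1450020_at gave 127 and 131, 115 and 122, 95.3 and 101, and 159.8 and 102, so 1 of the E18.5 mutant arrays was high and the other was level with the controls. Its second probe set, 1450019_at, gave 125 and 137, 122 and 122, 99.8 and 91.4, and 127 and 99.7, and in controls both probe sets were lower at E18.5, at ratios of 0.762 (0.725 to 0.799) and 0.729 (0.667 to 0.798).

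Laptm5, a lysosomal membrane protein of blood cells, had 5 probe sets, 3 of them above the 40th percentile. The brightest, 1426025_s_at, gave 427 and 433 in E14.5 controls, 495 and 310.0 in E14.5 mutants, 306 and 460.3 in E18.5 controls, and 458.5 and 426 in E18.5 mutants. Probe set 1417721_s_at lay between 349 and 430.3 and 1447742_at between 201 and 247 on all 8 arrays. At E18.5 these 3 had mutant over control ratios of 1.16, 1.14 and 1.11. The dim 1436905_x_at gave 166 and 205 in E18.5 mutants against 109.7 and 111 in E18.5 controls, a ratio of 1.68 (1.49 to 1.87), without reaching the minimum signal. The dimmest, 1459841_x_at at percentile 0.807, lay between 8.98 and 27.3.

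The duplicates of some probe sets parted in the same way. Between the E14.5 mutant arrays, the second over the first was 0.666 for Mrc1, 0.626 for Laptm5 1426025_s_at and 0.820 for Csf1r 1419872_at. Between the E18.5 control arrays it was 1.53, 1.51 and 1.34 for the same probe sets. Csf1r 1423593_a_at and Laptm5 1417721_s_at did not follow, each with ratios of 1.09 and 1.01 in these pools. Laptm5 1447742_at gave 0.856 and 1.03, and 1436905_x_at gave 0.866 and 1.015, so these followed in the E14.5 mutants alone. Csf1r 1419873_s_at gave 0.922 and 0.954, and the dimmest Laptm5 1459841_x_at gave 0.872 and 0.332. The arrays of a pool share their RNA, so these differences lie between preparations of 1 RNA, and they set the width of the ranges given for Mrc1, Csf1r 1419872_at and Laptm5 1426025_s_at.

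Relative to the mean of E14.5 controls, the E18.5 mutant arrays stood at 4.06 and 5.23 for C1qc, 3.07 and 4.03 for C1qb and 2.92 and 3.74 for C1qa. The highest among the brightest probe sets of the other 7 genes were Ctss, at 1.49 and 1.57, and Tyrobp, at 1.38 and 1.55. Over the 10 genes the median log2 ratio was 0.06 in controls with stage, 0.30 in mutants with stage, 0.35 between genotypes at E18.5 and 0.06 at E14.5. For the 7 genes other than C1q it was -0.04, 0.27, 0.32 and -0.01. Over all genes it was -0.01, 0.02, 0.03 and 0.01.

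**Figure D3:**
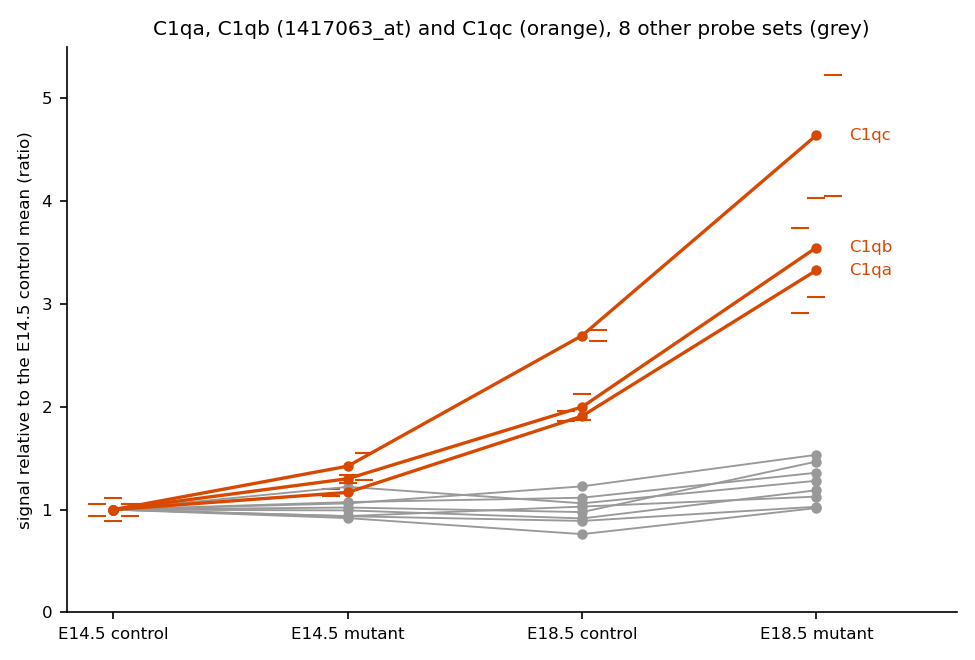
Signal of 11 probe sets in the 4 pools as a ratio to the mean of the E14.5 control arrays. Points joined by lines are pool means, and short horizontal marks are the single arrays of C1qa, C1qb (1417063_at) and C1qc, drawn in orange and shifted sideways by gene. The orange marks of the single E18.5 mutant arrays lay between 2.92 and 5.23, well above the grey lines of the 8 other probe sets.

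By the brightest probe set, both arrays of E18.5 mutants were above both of E18.5 controls for 7 of the 10 genes, C1qa, C1qb, C1qc, Tyrobp, Fcer1g, Ctss and Cx3cr1, where 22.8% of all genes were, and for 0 were they below, where 21.1% were. At E14.5 the 3 C1q genes were above, where 21.8% of all genes were, and Cx3cr1 was below, where 15.8% were. With stage, 6 genes were above in mutants (27.8% of all genes), with 0 below (24.1%), and 4 above in controls (31.9%), with 1 below (30.4%). The comparisons share pools, so their counts are not independent of each other. In normalized RNA of whole kidneys, changes in macrophage number, in RNA per macrophage and in the share of RNA from other cells cannot be told apart.

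Other macrophage genes were given by lists. Of the 22 measured general macrophage and leukocyte genes, 2 passed the 1.5-fold rule upward between genotypes at E18.5 and 0 downward, and the list had a median log2 ratio of 0.19. The pair were Cd68, a lysosomal glycoprotein, at 1.67 (1.47 to 1.88), and Mpeg1, at 1.52 (1.39 to 1.67). Cd68 gave 135 and 128 in E18.5 controls and 199 and 240.3 in E18.5 mutants. On 12 of the 22 genes both mutant arrays were above both controls, and on 0 were they below. Adgre1, among the 3 brightest of the list, was at 1.23 (1.18 to 1.28), the inhibitory Fc receptor Fcgr2b at 1.04 (0.832 to 1.30) and Ms4a7 at 1.10 (1.04 to 1.16). At E14.5, 0 of the 22 passed in either direction, and the median was -0.01.

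With stage, the general leukocyte gene Ptprc, which encodes CD45, was the 1 gene of this list to pass the 2-fold rule. It gave 135 and 148 in E14.5 controls, 132 and 123 in E14.5 mutants, 244 and 264 in E18.5 controls, and 323 and 376 in E18.5 mutants. E18.5 over E14.5 was 2.74 in mutants and, passing the 1.5-fold rule alone, 1.80 in controls, and mutant over control was 1.38 (1.22 to 1.54) at E18.5. Its E18.5 pools thus stood in the same order as those of C1q, and at E14.5 the mutant arrays were below the controls. In mutants Cd68, Fcgr3 and the lysozyme gene Lyz2 passed the 1.5-fold rule with stage as well, at 1.83, 1.57 and 1.58. In controls these 3 were at 1.15, 1.15 and 1.26 and did not pass. Fcgr3, at percentile 36.8, reached the minimum signal in E18.5 mutants alone, as did Cd68. Cd68, Mpeg1, Fcgr3 and Lyz2, and the dim markers Itgam, Cd163 and Gpr34, were named after their values were seen.

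Of 12 genes typical of fetal tissue macrophages, 0 passed either rule between genotypes. The transcription factor Maf, which other kidney cells also express, was at 0.702 (0.650 to 0.762) at E18.5, the lipid receptor Trem2 at 1.13 (0.982 to 1.33) and the scavenger receptor Stab1 at 1.18 (1.08 to 1.29). The ligand Csf1, which supports macrophages through Csf1r, was at 0.980 (0.837 to 1.15) at E18.5 and 1.06 at E14.5. A list of 8 growth factor and receptor genes held Csf1, Il34, Csf1r, Csf2ra, Csf2rb, Csf3r, Flt3 and Kit. Of these, 0 passed either rule in any of the 4 comparisons. Of 11 ITAM signalling genes other than the adaptors Tyrobp and Fcer1g, 0 passed between genotypes and both arrays of E18.5 mutants were above those of controls for 4. Plcg2, the brightest, was at 0.972.

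The other complement genes passed neither size rule between genotypes at E18.5. C1ra, a C1r protease gene, passed the 2-fold rule with stage in controls and in mutants, at 2.33 and 2.46. C1s1, a C1s protease gene, passed the 1.5-fold rule alone in controls, at 1.71, and neither rule in mutants, at 1.45. Their inhibitor Serping1 passed the 1.5-fold rule in controls, at 1.90, and the 2-fold rule in mutants, at 2.19. Between genotypes at E18.5 these were at 0.989 (0.928 to 1.05), 0.925 (0.829 to 1.02) and 1.29 (1.05 to 1.56). Of the 8 measured complement genes other than C1q, 0 passed a rule between genotypes, and their median log2 ratio was -0.06. Both E18.5 mutant arrays were above both controls for 1 of them and below for 2, where 22.8% and 21.1% of all genes were. The lowest was Cfb, at 0.757 (0.665 to 0.859), with a mean signal at percentile 36.9. The early component C2, the third brightest of the list, was at 0.895. Of the 10 cathepsin genes other than Ctss, 8 passed the 2-fold rule upward with stage in controls and 0 downward, with a median log2 ratio of 1.21, and by the brightest probe set both E18.5 arrays were below both E14.5 arrays for 1. Between genotypes at E18.5, 0 passed upward and 2 passed the 1.5-fold rule downward, and Ctsl, Ctsb and Ctsd, the brightest, were at 0.751, 0.911 and 0.867.

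Lists of other cells gave the background around these genes. Of 12 measured endothelial genes, 0 passed either rule between genotypes at E18.5, with a median log2 ratio of -0.09, and both mutant arrays were below both controls for 6. Of 11 T, NK and B cell genes and 9 neutrophil and monocyte genes, 0 passed, with medians within 0.04 of 0. Only 5 of the 11 and 3 of the 9 reached the 40th percentile, so these lists could show little change. Of 12 stromal genes, 3 passed the 1.5-fold rule upward and 1 the 2-fold rule, Pdgfra, a receptor of mesenchymal cells, at 2.11. The stromal median was 0.36, and on 11 of the 12 genes both mutant arrays were above the controls. The summed signal of the stromal list was 25756 and 25639.7 in E18.5 controls and 31721 and 33603 in E18.5 mutants. That of the 3 C1q genes was 951 and 994 in E18.5 controls and 1355 and 1713 in E18.5 mutants. Both sums read each gene by its brightest probe set, which for C1qb is the flatter 1434366_x_at. The C1q sum thus leaves out C1qb 1417063_at, at 222 and 251 in E18.5 controls and 363 and 477 in E18.5 mutants. The stromal list moved in the same direction as C1q at E18.5, and its part in the C1q result was not tested.

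**Figure D4:**
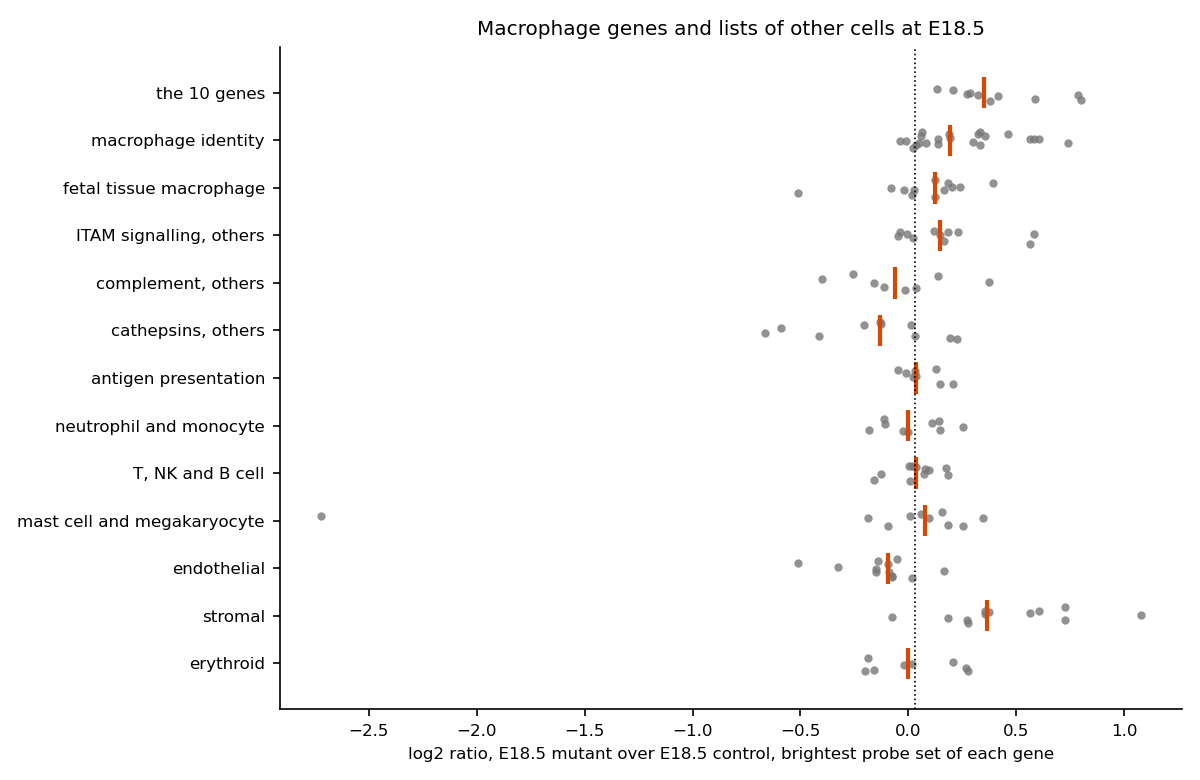
Log2 ratio of E18.5 mutant over E18.5 control for the 10 genes and for lists of other genes, each read by its brightest probe set. Each grey point is a gene, orange bars are list medians and the dotted line is the median of all genes, 0.03. The medians of the 10 genes, 0.35, and of the stromal list, 0.36, stood to the right of the general macrophage list, 0.19. The lymphoid list stood further left, at 0.04, with 5 of its 11 genes at or above the 40th percentile.

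The genes outside the set whose profile over the 8 arrays was most like the mean profile of the 10 genes were Cldn4, D17H6S56E-5, Plet1, Id4, Ctse, Rhpn2, Gsdmc2 and Negr1. Pearson correlations with the mean standardized log2 profile lay between 0.939 for Cldn4 and 0.908 for Negr1, among 1043 candidates whose pool means varied at least 2-fold. Cldn4, a tight junction gene of collecting duct epithelium, gave 356 and 322 in E14.5 controls, 432 and 347 in E14.5 mutants, 396 and 389 in E18.5 controls, and 728 and 819.9 in E18.5 mutants. Plet1 gave 409 and 439 in E18.5 controls and 1651 and 2034.5 in E18.5 mutants. These profiles share the high E18.5 mutant arrays, 8 arrays from 4 RNAs carry few independent points, and the correlations are given as a description.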

How the data were processed

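Signals are those the authors deposited, linear intensities from Affymetrix mouse genome arrays that they scanned, scaled and then normalized with the invariant-set method of dChip, which also modelled 1 value per probe set from its probes. The arrays of a pool share 1 RNA and were averaged, so differences are known only against technical spread. Precision is limited by having 2 arrays a pool. Platform annotation named 34958 probe sets with 1 gene, 932 with several and 9211 with none, and 34754 were matched to RefSeq by gene identifier.

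Ratios were taken between arithmetic means of duplicates. The 2-fold rule also asked that mean signal of the higher pool times ratio exceed 100. Both size rules asked that both arrays of the higher pool reach the 40th percentile of their own array. A gene passed if any of its probe sets did. Common effects of stage and genotype were fitted in R 4.3.3 with limma 3.58.1 to pool means of log2(signal + 1), over probe sets with a mean signal at or above the 40th percentile. A Benjamini-Hochberg adjusted p under 0.05 was called, and the prior had 3.91 degrees of freedom. A list median is taken over the brightest probe sets of its genes. Python 3.11.15 was used with matplotlib 3.10.9, pandas 2.3.3 and numpy 2.4.6.

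The 10 genes, the 18 gene lists, the size rules and the tests were chosen with earlier results of these data known. Named genes were all 10 of them, the 3 brightest of each list and those passing the 2-fold rule, as far as the text needs them, and the 8 genes most like the mean profile. Cd68, Mpeg1, Fcgr3, Lyz2, Itgam, Cd163, Gpr34 and Cfb fall outside this rule and were named after their values were seen. The size rules between genotypes and the limma genotype effect were also run on simulated signals. Stage comparisons, lists and profile likeness were not simulated. The simulated spread between pools was set by hand and was the same for all probe sets, so the counts found hold for that setting alone. In E18.5 mutant against E18.5 control, over 45101 probe sets of which 100 were raised 2-fold, the 2-fold rule found 54 of these and 1 unchanged probe set, and the 1.5-fold rule found 95 and 185 unchanged ones. Alternatives were another or no minimum signal, scaling to the median or to common quantiles, geometric means, an offset of 50 units, dropping the criterion on duplicates, reading the brightest probe set alone, leaving out each array in turn, and for limma other filters, pseudocounts and moderation. Leaving out probe sets 1.5-fold apart on the E18.5 mutant arrays, or those with the suffixes _x_at and _s_at, was chosen after seeing the data.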

Additional observations from a re-analysis of the deposited data

Results flagged for a closer look

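Cx3cr1 (1450020_at) was higher in mutants than in controls on both arrays at E18.5, by a ratio of 1.33, and lower on both arrays at E14.5, by a ratio of 0.918. On this probe set the genotypes thus differed in opposite directions at the 2 stages, and the difference between stages was not tested. At E18.5 the arrays were 159.8 and 102 in mutants against 95.3 and 101 in controls, so 1 of the mutant arrays was above the controls by about 1 unit. The probe set lies at percentile 21.8 of the mean signals. The second Cx3cr1 probe set, 1450019_at, at percentile 20.8, was also lower in mutants on both arrays at E14.5, by a ratio of 0.931. At E18.5 its genotypes overlapped, at a ratio of 1.19 (0.999 to 1.40), so it did not show the reversal.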

How the results depend on the processing

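The stage effects of C1qa, C1qb (1417063_at) and C1qc passed in limma under every alternative in which they were tested, with adjusted p-values up to 0.047, 0.044 and 0.034, and their genotype effects passed in none, with adjusted p-values from 0.584 upward. The count of genes passing the 2-fold rule with stage in controls, 1 (C1qc), was 2 with quantile normalization, 2 with median scaling and 2 with geometric means. It lay between 1 and 3 when single arrays were left out, at 2 without E18.5 control array 1 and 3 without E14.5 control array 1. The count passing the 1.5-fold rule upward with stage in mutants, 3, lay between 3 and 5, at 5 without E18.5 mutant array 1. Without that array, 1 gene passed the 2-fold rule upward between genotypes at E18.5, so this count lay between 0 and 1. At E14.5 the count of genes passing the 1.5-fold rule upward between genotypes, 0, lay between 0 and 1, at 1 without E14.5 mutant array 2 and 1 without E14.5 control array 1. With no minimum signal, 1 gene passed the 1.5-fold rule downward with stage in mutants. The other 246 of 256 counts under alternatives stayed within 1.5 times, and 0 ratios that had passed a rule changed direction. With the brightest probe sets only, C1qb no longer passed. Each condition has 1 RNA pool, so the spread between litters or embryos is unknown. Signals include background, and adding 50 units lowered the E18.5 over E14.5 ratio of C1qa in controls to 1.69. No paired analysis was possible because arrays numbered alike in different pools are preparations of different RNAs, averaged within their pool.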
